A study of Mus musculus with 2 samples.

Results

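Clusters of crosslinked reads were examined in the mRNAs of Esrrb and of 5 other factors of the pluripotency network, Pou5f1, Sox2, Nanog, Klf4 and Lin28a, in mouse embryonic stem cells. A cluster was a member when it lay wholly inside the window of 1 of these 6 genes on mm9, the build in the submitters' processing notes, on the strand of the gene. This selected 73 clusters of 12804 in the series. All 73 came from the 11670 clusters deposited for the library of the tagged protein, and 0 from the 1134 deposited for the library of the untagged protein. The genes were selected on measured values, namely the tagged-list clusters in their windows with their reads and ratios, so the values that follow are descriptions and no test was made on them.

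The study used iCLIP, in which ultraviolet light links a protein to the RNA it touches and the linked RNA is sequenced, to find the RNA contacts of FAM120A, which binds RNA and, per the series title, is associated with AGO2. The tagged group was the line TT-FHFam120a, which expressed FAM120A with FLAG and HA epitopes, and the untagged group was the line TT-Fam120a, which expressed the same protein without epitopes and so gave the background of the antibodies. In both lines the protein came from a lentiviral gene induced with 2.5 µg/mL doxycycline, so both contained added FAM120A, and the cells were kept with leukemia inhibitory factor and serum on gelatin. Each group had 1 library, so no difference between the libraries had a replicate check. The labels do not say whether a line was 1 clone.

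Embryonic stem cells keep the capacity to form all tissues of the embryo through a network of transcription factors that activate their own genes and each other's. Pou5f1 (OCT4), Sox2 and Nanog form its core. Esrrb, an orphan nuclear receptor, and Klf4, a zinc finger factor, act with them in the naive state that leukemia inhibitory factor sustains. Lin28a encodes an RNA-binding protein that blocks maturation of the let-7 microRNAs, which otherwise promote differentiation. After transcription, the amount of protein made from such mRNAs is set in part by microRNAs, which guide AGO2 mostly to 3′ untranslated regions.

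Every one of the 6 genes held at least 1 tagged-list cluster, but the numbers were very unequal. Esrrb held 31, Lin28a 18, Sox2 16 and Nanog 6, whereas Klf4 and Pou5f1 held 1 each. Neither list had a cluster on the opposite strand of any of the windows. The largest group of Esrrb clusters, in which neighbours were at most 1000 nt apart, had 30 members, a size that 19 of the 4724 such loci of the tagged list (0.402%) reached or passed. The corresponding figures were 65 loci (1.38%) for the 18 clusters of Lin28a, 84 loci (1.78%) for the 16 of Sox2 and 503 loci (10.6%) for the 6 of Nanog. The order of the genes depended on how close clusters were counted, because many lay almost end to end. When clusters within 50 nt of each other were merged, Esrrb and Lin28a both had 9, Nanog had 4 and Sox2 had 2. RNA levels were not measured in these files, so the number of clusters in an mRNA and the abundance of that mRNA cannot be told apart.

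**Figure D1:**
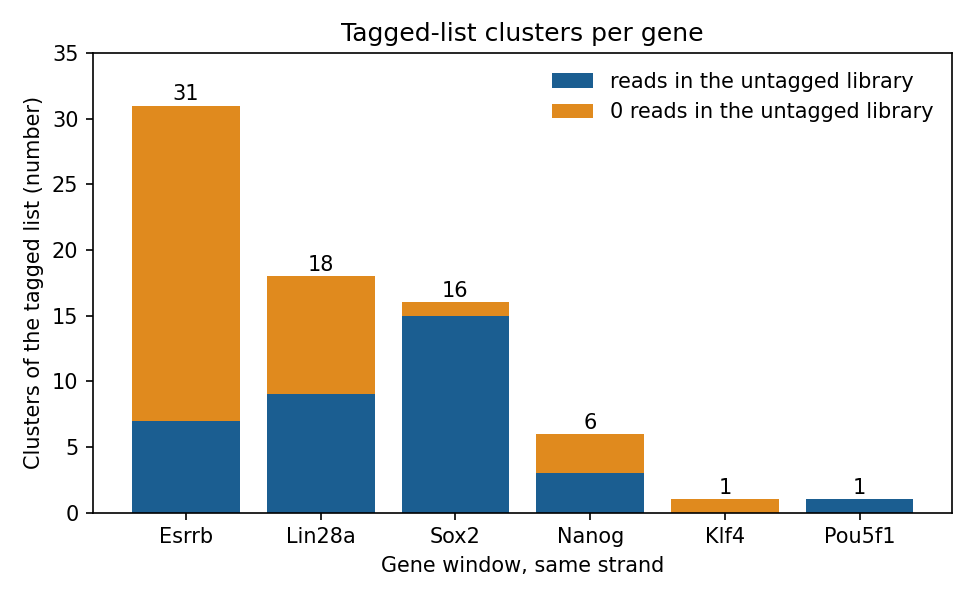
Number of tagged-list clusters in the window of each gene, on the strand of the gene, split by whether the untagged library had reads at the cluster. Esrrb held 31 clusters and Klf4 and Pou5f1 1 each. Untagged reads were present at 15 of the 16 Sox2 clusters and 7 of the 31 Esrrb clusters. In the whole tagged list 69.9% of clusters had 0 untagged reads. No listed cluster of 5 to 8 tagged reads had any, and 13 Esrrb clusters but 1 Sox2 cluster were of this size.

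All clusters lay past the middle of their window. Except for 1 cluster of Esrrb, the clusters of a gene that had several lay together in 1 locus. The first cluster of the largest locus began 98.2% of the way along the Esrrb window, 87.2% along that of Pou5f1, 86.1% along that of Nanog, 82.6% along that of Klf4 and 81.6% along that of Lin28a. In Sox2 it began 52.3% of the way along. The last cluster ended between 302 nt (Lin28a) and 1105 nt (Klf4) before the 3′ end of the window. The windows are not gene models, and an mm9 annotation was not used here, so clusters were not assigned to exons or untranslated regions. On the same strand, the nearest tagged-list cluster outside any of the 6 windows was 48725 nt away, to the 3′ side of Nanog.

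In the deposited lists a cluster is described by its reads in its own library and by the log2 ratio of those reads to the reads of the other library after 1 is added to both. The untagged reads behind this ratio, recovered from the listed values, were rounded multiples of a factor of 1.501. This is taken here as a scaling by the authors for depth and called the depth factor, and the total depth of either library is unknown. Untagged reads are printed unscaled, and ratios given with a 95% interval are tagged over untagged reads after division by this factor. The intervals are exact binomial (Clopper-Pearson) intervals and cover counting error only. Where the untagged library had 0 reads, the ratio is given against a floor of 3 unscaled reads in that cluster. This value is not a lower bound, and the start of the exact interval, which is lower, is given with it.

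Esrrb clusters formed a single dense stretch of 2458 nt on the plus strand of chromosome 12, chr12:87860036-87862493, inside the window chr12:87702000-87863000. The stretch made up 1.53% of the window, its 30 clusters covered 44.4% of its bases, and the median gap between neighbours was 22 nt, with a largest gap of 392 nt. The reads were concentrated at its 5′ side. The 4 clusters with the most reads were adjacent and together spanned 225 nt, starting 47 nt after the start of the stretch, and had 49 to 205 tagged reads. The other 27 Esrrb clusters had 5 to 23 reads, with a median of 9.

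The leading Esrrb cluster, chr12:87860183-87860279, had 205 tagged reads against 6 untagged reads, a ratio of 22.8 (10.3 to 62.8). The cluster just after it, chr12:87860282-87860307, had 141 tagged reads against 5 untagged, a ratio of 18.8 (7.86 to 58.8), but only 6 of the 141 lay at its highest position. Whether neighbouring clusters share reads is not known, and reads were not summed over clusters. Just before the leading cluster, chr12:87860133-87860158 had 128 tagged reads, 53 of them at 1 position, against 4 untagged reads, a ratio of 21.3 (8.13 to 79.4). The first of the 4, chr12:87860083-87860108, had 49 tagged reads against 2 untagged reads, a ratio of 16.3 (4.28 to 138.6). The intervals of all 4 ratios overlapped, so the 4 clusters could not be ranked by ratio at this depth.

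Downstream, Esrrb clusters were shallow. When the stretch was cut into 3 parts of 819 nt, the 5′ part held 13 clusters, the middle part 10 and the 3′ part 7. Of these, 8, 8 and 7 had 0 untagged reads. In the whole tagged list 69.9% of clusters had 0, as did every cluster of 5 to 8 tagged reads, so nothing is read from these counts. Median log2 ratios of the 3 parts were 3, 2.99 and 3.58, and the highest read counts were 205, 21 and 23. The highest log2 ratios of the gene, 4.58 and 4.46, belonged to chr12:87862384-87862409, with 23 tagged reads, and chr12:87861204-87861249, with 21, both against 0 untagged reads. Those clusters were 5.11-fold and 4.66-fold higher in the tagged library against the floor, while their intervals began at 3.83 and 3.47. The lowest log2 ratios were 1.46 at chr12:87861267-87861314 (10 tagged and 2 untagged reads), 1.74 at chr12:87860934-87860959 (9 and 1) and 2.22 at chr12:87860434-87860473 (13 and 1). The ratio intervals of the first and second of these included equality, at 3.33 (0.71 to 31.3) and 6 (0.831 to 262.8). The most 3′ cluster, chr12:87862427-87862493, had 10 tagged reads against 0 and ended 507 nt before the end of the window.

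A single Esrrb cluster lay apart from the stretch. It was at chr12:87820094-87820119, 39916 nt upstream of the first cluster of the stretch, with 5 tagged and 0 untagged reads. These are the lowest counts the list holds, and 5 of the 31 Esrrb clusters had them, as did 2 clusters of Lin28a, 1 of Nanog and 1 of Sox2.

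**Figure D2:**
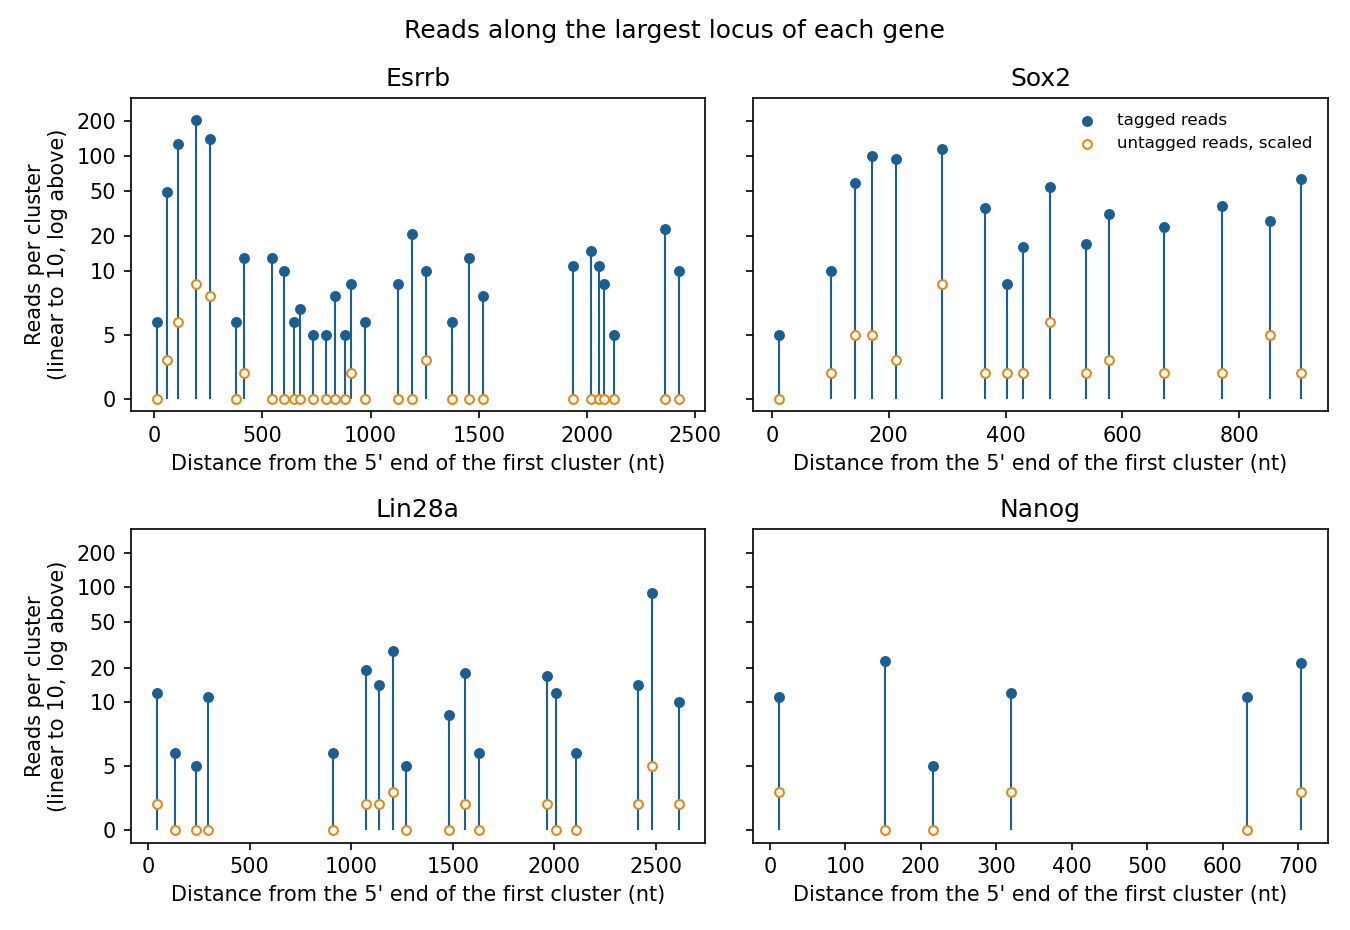
Reads of each cluster along the largest locus of Esrrb, Sox2, Lin28a and Nanog, against distance in nt from the 5′ end of the first cluster, in the direction of the mRNA. Filled points are tagged reads and open points untagged reads after the authors' scaling, on an axis that is linear up to 10 reads and logarithmic above. The 4 deepest Esrrb clusters, with 49 to 205 reads, stand next to each other near the 5′ side, while Sox2 reads extend along the whole locus.

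Sox2, which encodes an HMG-box partner of OCT4, had the highest median of reads per cluster among the 6 mRNAs, although the 3 deepest clusters were in Esrrb. Its 16 clusters filled 929 nt of chromosome 3, chr3:34550331-34551259 on the plus strand. This was 17.2 clusters per 1000 nt, against 12.2 in the Esrrb stretch, 8.36 in Nanog and 6.8 in Lin28a. That order depended on how close clusters were counted, since merging those within 50 nt left 2 in Sox2 and 4 in Nanog. The 16 Sox2 clusters covered 66.4% of these bases, with a median gap of 18 nt and a largest gap of 63 nt. Sox2 has no introns, so these distances are also distances along the mRNA. Tagged reads per cluster ran from 5 to 114 with a median of 33 (95% interval 16 to 63), while the Esrrb median was 9 (6 to 13). Both intervals treat clusters of the same mRNA as independent, although neighbours may share reads. Reads were also among the values on which the genes were selected, so nothing is read from the difference.

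Sox2 reads were highest in the 5′ part of the locus. In 3 parts of equal length, from 5′ to 3′, the deepest clusters had 114, 54 and 63 reads. The median reads per cluster were 76, 24 and 32. The deepest cluster, chr3:34550582-34550663, had 114 tagged reads, 73 of them at its highest position, against 6 untagged reads, a ratio of 12.7 (5.64 to 35.2). Upstream of it, chr3:34550490-34550515 had 100 tagged reads against 3, a ratio of 22.2 (7.38 to 109.5), with 56 reads at 1 position. Between them, chr3:34550531-34550556 had 94 tagged reads against 2 and the highest log2 ratio of the gene, 4.57, which is a ratio of 31.3 (8.43 to 262.4). The intervals of these ratios overlapped, so the data did not separate the clusters by ratio.

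The cluster chr3:34550460-34550485, before these, had 58 tagged reads against 3, a ratio of 12.9 (4.19 to 64.3). The last Sox2 cluster, chr3:34551216-34551259, had 63 tagged reads against 1, a ratio of 42 (7.26 to 1684) whose width comes from the single untagged read. At the 5′ end of the locus, chr3:34550331-34550356 had 5 tagged reads against 0. The lowest log2 ratios of the gene were 1.74 at chr3:34550720-34550745 (9 tagged and 1 untagged read), 1.87 at chr3:34550420-34550445 (10 and 1) and 2.22 at chr3:34551172-34551197 (27 and 3). The ratio intervals of the first and second, 0.831 to 262.8 and 0.948 to 289.2, included equality, and that of the third, 1.85 to 30.9, did not. RefSeq on GRCm38.p6 places the long noncoding gene Sox2ot over Sox2, and the part of its transcripts in these reads was not tested. Esrrb is also overlapped by a gene there, the long noncoding Gm40483, but at its 5′ end, away from its clusters.

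Lin28a clusters were spread more thinly. On the minus strand of chromosome 4, chr4:133559302-133561949 held all 18 in 2648 nt, of which they covered 28.1%, with a median gap of 42 nt and a largest gap of 581 nt. Tagged reads ran from 5 to 89 with a median of 11.5 (6 to 17). The deepest cluster of this mRNA lay near the 3′ end of the locus. The leading cluster, chr4:133559449-133559487, lay 2462 nt into the locus and had 89 tagged reads against 3 untagged reads, a ratio of 19.8 (6.55 to 97.7). No other Lin28a cluster had more than 28 reads, and in 3 parts of equal length the median reads per cluster were 8.5, 11.5 and 13 from 5′ to 3′.

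The cluster with 28 reads, chr4:133560730-133560755, had 2 untagged reads and a ratio of 9.33 (2.35 to 80.8). Near the middle of the locus, chr4:133560854-133560902 had 19 tagged reads against 1 and chr4:133560366-133560411 had 18 against 1, with log2 ratios of 2.74 and 2.66. The log2 ratios of 3.7 at chr4:133559929-133559954 and 3.58 at chr4:133561632-133561681 came from 12 and 11 tagged reads against 0. Against the floor those clusters were 2.67-fold and 2.44-fold higher, while their intervals began at 1.85 and 1.67. The lowest log2 ratio, 1.87, was at the most 3′ cluster, chr4:133559302-133559370, with 10 tagged reads and 1 untagged read, and its ratio interval, 0.948 to 289.2, included equality. The next lowest values were 2.12 at the most 5′ cluster, chr4:133561865-133561949 (12 and 1), and 2.32 at chr4:133559515-133559561 (14 and 1) and at chr4:133560771-133560852 (14 and 1).

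Nanog, the homeobox factor of the core network, had 6 clusters in 718 nt on the plus strand of chromosome 6, chr6:122663888-122664605. From 5′ to 3′, chr6:122663888-122663913 had 11 tagged reads against 2 untagged reads, chr6:122664028-122664053 had 23 against 0, and chr6:122664091-122664116 had 5 against 0. After these, chr6:122664184-122664231 had 12 against 2, chr6:122664497-122664545 had 11 against 0, and chr6:122664580-122664605 had 22 against 2. The cluster with 23 reads was 5.11-fold higher in the tagged library against the floor, while its interval began at 3.83. Of its reads, 15 lay at 1 position. The cluster with 22 reads had a ratio of 7.33 (1.8 to 64.3). The log2 ratios of the 6 ran from 1.58 to 4.58 with a median of 2.55, and the ratio intervals of the clusters with 11 and 12 reads against 2, 0.8 to 34 and 0.89 to 36.8, included equality.

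Pou5f1 and Klf4, which encode OCT4 and a zinc finger factor, each had a single shallow cluster. That of Pou5f1, chr17:35647297-35647322 on the plus strand, had 11 tagged reads against 1, a log2 ratio of 2 and a ratio of 7.33 (1.07 to 315.5). That of Klf4, chr4:55540605-55540630 on the minus strand, had 10 tagged reads against 0 and a log2 ratio of 3.46. It was 2.22-fold higher in the tagged library against the floor, while its interval began at 1.49. The Pou5f1 cluster was not listed at a p of 0.01 or below, so at that limit Pou5f1 would have none. For Nanog, RefSeq on GRCm38.p6 names 2 pseudogenes (Nanog-ps1 and Nanog-ps2). How reads that match several places were counted is not given in the sources used here, so the Nanog counts are uncertain.

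Medians of the log2 ratio were taken over all clusters of a gene, whatever the depth. Among the genes with several clusters the intervals of the medians all overlapped, so these genes could not be ranked by median. The median was 3.17 (2.81 to 3.58) in Esrrb, 3.03 (2.5 to 3.66) in Sox2, 2.78 (2.58 to 2.86) in Lin28a and 2.55 (1.58 to 4.58) in Nanog. It was 2 at the single Pou5f1 cluster and 3.46 at that of Klf4. The whole tagged list had a median of 2.81, a value also given by 6 reads against 0, and its other loci of at least 10 clusters, with 3582 clusters in all, had a median of 3 (2.95 to 3). Of all tagged-list clusters, 38.7% reached a log2 ratio of 3 or more. Among the members this was so for 18 of 31 clusters in Esrrb, 9 of 16 in Sox2, 4 of 18 in Lin28a, 2 of 6 in Nanog, 1 of 1 in Klf4 and 0 of 1 in Pou5f1. The contrast that gives these counts also chose the clusters, so nothing is read from them.

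**Figure D3:**
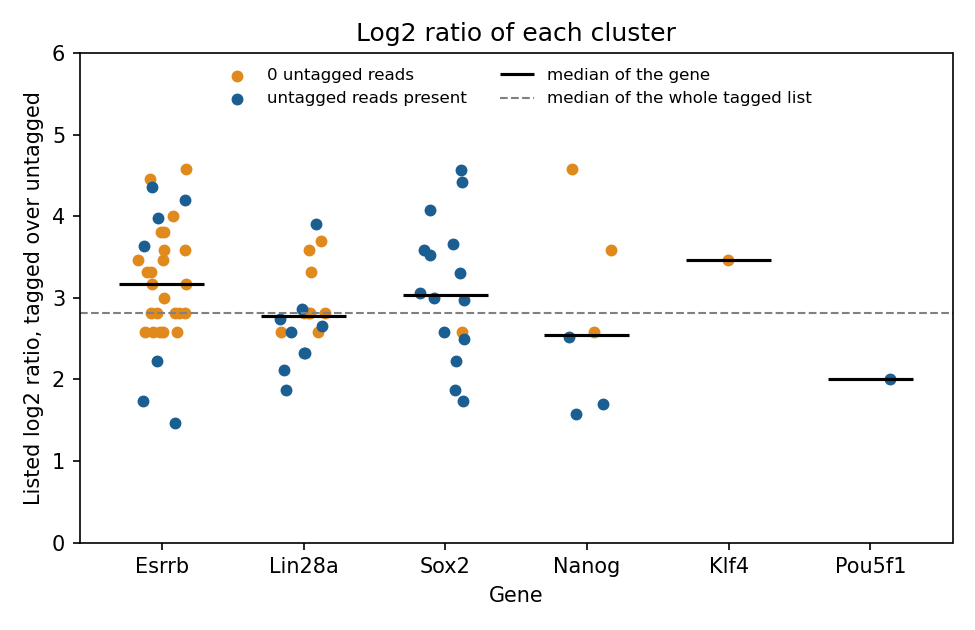
Listed log2 ratio of tagged over untagged reads for each of the 73 clusters, by gene, with the median of each gene as a black line and the median of the whole tagged list, 2.81, as a dashed line. Sideways scatter only separates points. Gene medians ran from 2 in Pou5f1, with 1 cluster, to 3.46 in Klf4, with 1 cluster, and the values of Esrrb, Sox2 and Nanog each extended from below 2 to above 4.5.

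Low read counts set many of these ratios. Of all tagged-list clusters, 17.1% had 20 or more reads, and the share was 11 of 16 in Sox2, 6 of 31 in Esrrb, 2 of 6 in Nanog and 2 of 18 in Lin28a. Among tagged-list clusters of this size, 46.3% had a log2 ratio of at least 3, against 17 of the 21 members of this size, including 6 of 6 in Esrrb and 9 of 11 in Sox2. The median log2 ratio of the 6 Esrrb clusters was 4.28 (3.64 to 4.58) and that of the 11 Sox2 clusters 3.52 (2.97 to 4.42). Other clusters of this size had a median of 3.52 (3.43 to 3.58) in loci of at least 10 clusters and of 2.87 (2.81 to 2.94) in the whole list. These ratios also chose the clusters, the 6 in Esrrb include 4 neighbours that may share reads, and nothing is read from the differences. For the list as a whole, 46.2% of clusters had a lower bound of the depth-adjusted ratio above 1. The count was 18 of 31 in Esrrb, 13 of 16 in Sox2, 11 of 18 in Lin28a, 3 of 6 in Nanog and 1 of 1 in Klf4 and in Pou5f1. Against 0 untagged reads this bound was 0.96 at 7 tagged reads and 1.14 at 8. These counts therefore depend on depth, and nothing is read from them.

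The untagged library had reads at most Sox2 clusters, while at most Esrrb clusters, as at most clusters of the whole list, it had none. It had 0 reads at 69.9% of all tagged-list clusters, at 24 of 31 in Esrrb, 9 of 18 in Lin28a, 3 of 6 in Nanog, 1 of 16 in Sox2, 1 of 1 in Klf4 and 0 of 1 in Pou5f1. The listing rule fixes part of this, since 0 of the 5887 clusters of the list with 5 to 8 tagged reads had untagged reads, and 13 of the Esrrb clusters were of this size against 1 of Sox2. Among clusters of 9 to 19 reads, 0 untagged reads were found at 9 of 12 in Esrrb (75%, Wilson 95% interval 46.8 to 91.1), 3 of 10 in Lin28a (30%, 10.8 to 60.3) and 0 of 4 in Sox2 (0 to 49). The whole list gave 51.3% (49.7 to 52.9) at this size. At 20 or more reads, where the list gave 16.1%, the counts were 2 of 6 in Esrrb and 0 of 11 in Sox2. At 9 to 19 reads the intervals of Esrrb, Lin28a and Sox2 all overlapped. Tagged reads were not matched between genes within this class, and clusters of 1 mRNA are not independent. Where untagged reads were present they were few, from 1 to 6 per cluster before scaling.

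**Figure D4:**
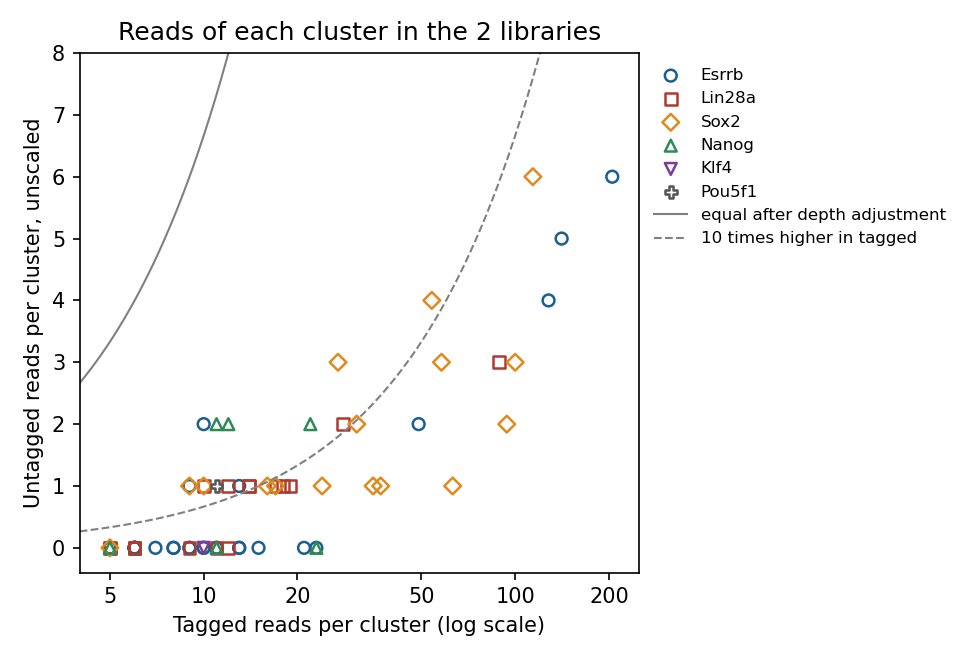
Tagged reads (log scale) against unscaled untagged reads for each of the 73 clusters, with the line of equal reads after depth adjustment and the line where tagged reads are 10 times higher. Clusters with the same pair of counts lie on top of each other. No cluster had more than 6 untagged reads. All lie to the right of the line of equality, which the list fixes, since it holds only clusters enriched over the untagged library.

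As a set, the members were near the clusters of other dense loci in form, though the shares varied by gene. Names of region C2 alone, a class that the sources used here do not explain, were carried by 46 of the 73 (63%, 51.5 to 73.2), against 42% of the whole list and 63.6% (62 to 65.1) in other loci of at least 10 clusters. Names of region B alone were carried by 16, including the single clusters of Pou5f1 and Klf4, the Esrrb cluster that lay apart and 3 of the 6 in Nanog. By gene, C2 alone was carried by 14 of 16 in Sox2 (87.5%, 64 to 96.5), 19 of 31 in Esrrb and 11 of 18 in Lin28a. It was carried by 2 of 6 in Nanog and 0 of 1 in Pou5f1 and in Klf4. Of the 21 members with 20 or more reads, 18 had at most 50% of their reads at the highest position (85.7%, 65.4 to 95) and 0 had over 75%, while in the whole list 56.4% and 27.4% did. In the other dense loci these shares were 84.1% (81.4 to 86.5) and 1.5%. For both measures the pooled intervals included the values of the other dense loci, but they treat clusters of 1 mRNA as independent. For C2 alone the Sox2 interval began at 64%, just above the 63.6% of the other dense loci, and overlapped their interval of 62 to 65.1. It also treats clusters of 1 mRNA as independent, so Sox2 was not set apart. Nanog, Pou5f1 and Klf4 were themselves in loci of fewer than 10 clusters.

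The loci most like the Esrrb stretch in number of clusters were on other chromosomes. On the minus strand of chromosome 7, chr7:82916404-82923264 also held 30 clusters; their median log2 ratio was 3, and 25 had no untagged reads. On the plus strand of chromosome 15, chr15:102262236-102265300 held 30 with a median of 2.81 and no untagged reads at 20. On the plus strand of chromosome 5, chr5:93600643-93603740 held 29 with a median of 3 and no untagged reads at 16. Likeness here is the number of clusters, with ties broken by the median log2 ratio, over 1 library per group. The Esrrb stretch, with a median of 3.25 and no untagged reads at 23 of its 30 clusters, was the shortest of the 4, at 2458 nt against 3065 to 6861 nt. Its deepest cluster, with 205 reads, exceeded theirs, which had 32 to 49 reads, while the median reads per cluster were 9.5 in Esrrb and 8, 9 and 13 in the others.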

How the data were processed

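Per the submitters' processing notes the build was mm9. Which aligner and cluster caller were used, and how duplicates were treated, is not given in the sources used here. The authors deposited 1 list of clusters per library, each enriched over the other library, with the read count at the highest position and joined values without a header. From the values, these deposited scores were read as own reads, a log2 ratio after adding 1 to each count, and a one-sided exact binomial p. Reads of the other library were recovered as the whole number that gave back both (100% of clusters, with several candidates at 5 tagged-list clusters). Tagged-list values were rounded multiples of 1 factor between 1.5 and 1.502, and the midpoint, 1.501, was used. Total depth is unknown. In 7400 simulated tagged-list clusters, made with the same formulas, 99.99% of counts were recovered, which checks the computation and not the reading of the values.

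Clusters at most 1000 nt apart on 1 strand formed loci. The members and lists were chosen with earlier results of these data known. Clusters printed singly were all of a gene with at most 10, and otherwise the 5 with the lowest p, the 3 highest and 3 lowest log2 ratios and the outermost on each side. In Lin28a, ties at the third lowest ratio are both printed. Intervals on medians come from binomial order statistics and treat clusters of the same mRNA as independent. Sequences, other network genes and markers of fibroblasts or differentiated cells were not analysed here, since they need an mm9 genome or annotation. Analyses used Python 3.11.15, scipy 1.17.1 and pandas 2.3.3.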

Additional observations from a re-analysis of the deposited data

How the results depend on the processing

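No paired analysis was possible because the groups have 1 library each, and for the same reason no library could be left out. Of 127 alternative values, 97 stayed within 1.5 times a count or within the 95% interval, and 30 moved. None changed direction, which counts, and ratios from a list chosen for enrichment, could hardly do. Of the 97, 48 were untagged-list counts of 0, most of which could not move by construction, which leaves 49 of 79 for the other results. Extending the windows by 1000 or 5000 nt, or accepting any overlap, kept every count. The opposite strand had 0 tagged-list clusters in all 6 windows. At a listed p of at most 0.01 the tagged-list counts became 19 in Esrrb, 11 in Lin28a, 3 in Nanog and 0 in Pou5f1, and at 0.001 they became 13, 7, 3 and 0. With at least 10 reads they were 15 in Esrrb and 11 in Lin28a, and with clusters within 50 nt merged, 9 in Esrrb, 9 in Lin28a and 2 in Sox2. These fall by construction, since fewer clusters enter. The Esrrb median log2 ratio became 3.81 at a p of at most 0.001, at 10 or more reads and after merging, and 4.09 with 0.5 added after depth adjustment, where the smaller added number raises ratios against 0. Esrrb clusters with a log2 ratio of at least 3 fell to 7 after merging. Those with 0 untagged reads numbered 14 and 9 at the p limits, 9 at 10 or more reads and 7 after merging. Esrrb formed 9 loci when merged at 50 nt and 4 at 200 nt, in place of 2. Ratios of the leading clusters, against the floor where untagged reads were 0, stayed within their intervals with no depth factor or with 1.512. Those intervals are wide, and have no upper end where untagged reads were 0, so the ratios could hardly leave them. Low counts limit most values: 21 of the 73 clusters had 5 to 8 reads.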
